A study of Homo sapiens with 11 samples.

Results

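The transcripts of 10 cell surface proteins studied as targets of antibodies, antibody conjugates or engineered T cells in acute myeloid leukaemia (AML) were measured by RNA sequencing in a pair of human AML lines. The genes were CD33, CLEC12A, HAVCR2, LILRB4, LILRB1, CD44, CD47, IL1RAP, CD38 and CD70, chosen as a named list of antigens and found by matching each symbol to 1 Ensembl identifier. They are 10 of the 58037 identifiers in the count table, and 10 of 10 passed the filter on low counts that left 18908 genes for testing. The groups were OCI-AML3-FLT3-ITD with 100 nM FHD-286 for 16 h (n = 2), OCI-AML3-FLT3-ITD control (n = 3), OCI-AML3 with 100 nM FHD-286 for 16 h (n = 3) and OCI-AML3 control (n = 3). Both are cell lines: OCI-AML3 is widely used as a model of AML, and the second line carries in its name an internal tandem duplication of FLT3, a receptor kinase. FHD-286 is a small molecule inhibitor of BRG1 (SMARCA4) and BRM (SMARCA2), motor subunits of BAF remodellers that shift nucleosomes at enhancers and promoters. All groups grew in the same serum-containing medium. The labels do not say how the FLT3-ITD line was made, whether it is 1 clone, or whether controls received a vehicle. Whether replicates were separate cultures is not stated either, so each p-value reflects the spread of these libraries alone, and that spread may be technical.

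The proteins fall into a few functional classes. CD33 (a sialic acid binding Siglec), CLEC12A (a C-type lectin-like receptor), LILRB4 and LILRB1 (leukocyte immunoglobulin-like receptors) are myeloid receptors whose cytoplasmic ITIM motifs recruit phosphatases such as the product of PTPN6 and dampen activating signals. HAVCR2 is the checkpoint receptor TIM-3, found on T cells and on AML stem cells. CD44 binds hyaluronan and holds leukaemic cells in the marrow niche, CD47 binds SIRPA on macrophages and blocks phagocytosis, and IL1RAP is the shared second chain of receptors for interleukin-1 and related cytokines. CD38 is an ectoenzyme that consumes NAD, and CD70 is a TNF family ligand of CD27. Reads were counted per gene, so isoforms such as the variants of CD44 or CD33 cannot be separated, and transcript counts say nothing of protein on the surface.

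FHD-286 went with lower transcript levels of the same 6 antigens in both lines, CD33, CLEC12A, LILRB4, LILRB1, CD44 and CD38. Of all genes tested 14.9% were lower in the FLT3-ITD line, and 21.5% were lower and 19.8% higher in OCI-AML3. In OCI-AML3 HAVCR2 and IL1RAP were higher as well, the HAVCR2 call at 2 to 18 counts per library and lost with DESeq2, without the low-count filter and when any 1 of 7 libraries was left out. The CD44 call in OCI-AML3 was lost without any 1 of the 6 libraries of that line. The CLEC12A and CD44 calls in the FLT3-ITD line were lost without either treated library. A fit of only the groups compared called 2 antigens in the FLT3-ITD line, and 8.95% of genes. In the test of a difference between the responses of the lines IL1RAP passed, where 3.36% of all genes were called. That call was lost without FLT3-ITD FHD-286 replicate 2. Without FLT3-ITD control replicate 2 IL1RAP, CD44, LILRB4 and CD33 passed, where 17.0% of genes were called. CD47 and CD70 did not pass the test of FHD-286 in either line, and both were higher in the FLT3-ITD line than in OCI-AML3. CD44 differed between the lines as well as with treatment, with 2.35 and 2.26 CPM (counts scaled to library size with TMM factors) in the treated FLT3-ITD libraries, against 37.8, 38.0 and 38.9 CPM in the treated OCI-AML3 libraries.

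The promoter windows of the 4 ITIM receptors among the antigens are shown. These transcripts were lower with FHD-286 in both lines, and so were those of CD44 and CD38, whose windows are not shown. Each window is the 250 bases upstream of a RefSeq transcription start (GRCh38.p14), 5' to 3' on the gene's strand, and capitals mark short motifs found by letter search on both strands.
CD33 (chr19:51224830-51225079, plus strand): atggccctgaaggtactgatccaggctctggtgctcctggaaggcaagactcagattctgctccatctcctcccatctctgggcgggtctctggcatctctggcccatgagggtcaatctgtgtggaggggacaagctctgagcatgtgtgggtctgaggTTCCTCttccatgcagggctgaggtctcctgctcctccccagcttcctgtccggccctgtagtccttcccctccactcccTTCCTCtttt
CLEC12A (chr12:9971159-9971408, plus strand): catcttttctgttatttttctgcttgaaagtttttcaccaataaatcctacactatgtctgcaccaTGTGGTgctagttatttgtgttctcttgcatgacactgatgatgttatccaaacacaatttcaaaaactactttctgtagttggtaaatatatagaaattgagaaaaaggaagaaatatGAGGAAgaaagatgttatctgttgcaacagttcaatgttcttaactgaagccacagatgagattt
LILRB4 (chr19:54662735-54662984, plus strand): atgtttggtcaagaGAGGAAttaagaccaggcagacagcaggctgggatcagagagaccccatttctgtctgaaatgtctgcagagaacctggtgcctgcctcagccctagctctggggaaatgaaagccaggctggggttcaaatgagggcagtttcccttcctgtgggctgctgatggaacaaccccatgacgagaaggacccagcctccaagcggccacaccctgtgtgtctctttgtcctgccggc
LILRB1 (chr19:54616879-54617128, plus strand): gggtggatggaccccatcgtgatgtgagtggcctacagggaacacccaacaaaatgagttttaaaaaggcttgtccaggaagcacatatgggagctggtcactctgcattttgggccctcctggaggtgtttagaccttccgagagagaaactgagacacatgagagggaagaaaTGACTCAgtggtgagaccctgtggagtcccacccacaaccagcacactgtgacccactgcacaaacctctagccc
The letters GAGGAA, part of the site bound by PU.1, were in the windows of CD33, CLEC12A and LILRB4. In CD33 they lie on the minus strand and read TTCCTC here, at 85 to 90 and at 5 to 10 bases upstream of the start. They lie 60 to 65 bases upstream in CLEC12A and 231 to 236 bases upstream in LILRB4. The RUNX-type letters TGTGGT stand 179 to 184 bases upstream in CLEC12A, and TGACTCA, a form of the AP-1 type TGANTCA, stands 69 to 75 bases upstream of the first of 3 LILRB1 starts. Windows were found for 8 of the 10 antigens, with 10 starts in all. No window was found for HAVCR2 and CD70. The windows of CD44, CD38, CD47 and IL1RAP and of the other LILRB1 starts, which are not shown, held none of the motifs searched. GAGGAA was in 3 of the 10 windows of these 8 antigens, and in 23.6% of 35116 RefSeq windows of the same length. TGTGGT or TGCGGT was in 16.3% of those windows, and TGANTCA in 6.57%. The CEBP-type letters TTGCNNAA (9.05% of windows) and the E-box CACGTG (6.34%) were in none of the antigens' windows. None of these motifs overlapped another. A match describes letters only, and no binding was measured.

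Total counts ran from 58397190 to 79172389 per library, so 3 counts in a library equalled between 0.0366 and 0.0548 CPM, a limit that covers counting error only. One FLT3-ITD control, labelled replicate 2, stood apart from replicates 1 and 3 of its group, most widely for CD44, CLEC12A and CD38, and had the largest mitochondrial share of counts. That share was 8.85%, and the remaining 10 libraries lay between 4.48% and 7.54%. Over the 18908 genes tested its log2 CPM correlated with OCI-AML3 controls at r of 0.979 to 0.984 and with the other controls of its own label at 0.957 and 0.960, which correlated with each other at 0.993. Genes are not independent replicates, so these r carry no p. Values of the FLT3-ITD controls that include it therefore average in a library nearer, over those genes, to OCI-AML3 controls. It stays in its labelled group. Most antigen results that it moves are given with and without it, and single genes of the related lists are given with it unless stated. The common coefficient of variation between replicates was 0.193 with it and 0.0652 without it. Of 10 markers of myeloid AML cells, CD33 among them, 8 were lower with FHD-286 in each line. Of all genes tested 14.9% were lower in the FLT3-ITD line and 21.5% in OCI-AML3. PTPRC, another of the 10, was higher in OCI-AML3 (0.46, adjusted p 0.00384, edgeR). The summed level of the 10 was 1204 to 1253 CPM in treated and 3061 to 3527 CPM in control FLT3-ITD libraries. It was 1800 to 1818 CPM in treated and 4576 to 5141 CPM in control OCI-AML3 libraries. In bulk RNA, fewer cells of a type and less RNA per cell cannot be told apart. Of 9 lymphoid markers, 5 could be tested and 2 (NKG7 and IL7R) were lower in each line. Their summed level was 3.21 to 3.48 CPM in treated FLT3-ITD libraries, against 27.4, 3.15 and 28.1 CPM in control replicates 1, 2 and 3, so treated libraries were below the controls other than replicate 2. It was 0.697 to 0.856 CPM in treated and 3.77 to 4.06 CPM in control OCI-AML3 libraries, with CD3E at 0 throughout. Without replicate 2, 4 lymphoid markers were lower in the FLT3-ITD line and 3 in OCI-AML3. The 10 erythroid and megakaryocyte markers summed to at most 0.866 CPM, with HBB, HBG1, GP1BB and PF4 among those at 0 counts in all 11 libraries. The 10 stromal and epithelial markers summed to 4.87 to 4.90 CPM in treated FLT3-ITD libraries, against 11.1, 29.3 and 10.4 CPM in control replicates 1, 2 and 3. They summed to 24.6 to 27.6 CPM in treated and 28.5 to 31.2 CPM in control OCI-AML3 libraries. PECAM1, which myeloid cells also express, made up nearly all of that sum, since no other marker of the list passed 0.214 CPM in any library, and CDH1 was at 0. Of this list 2 could be tested, with PECAM1 lower in the FLT3-ITD line (-1.80, adjusted p 0.00601, edgeR, and -1.13 without control replicate 2, adjusted p 4.20e-09) and DCN higher in OCI-AML3 (1.85, adjusted p 0.0113, at most 16 counts in a library). The part of the lymphoid markers and of PECAM1 in the results was not tested.

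**Figure D1:**
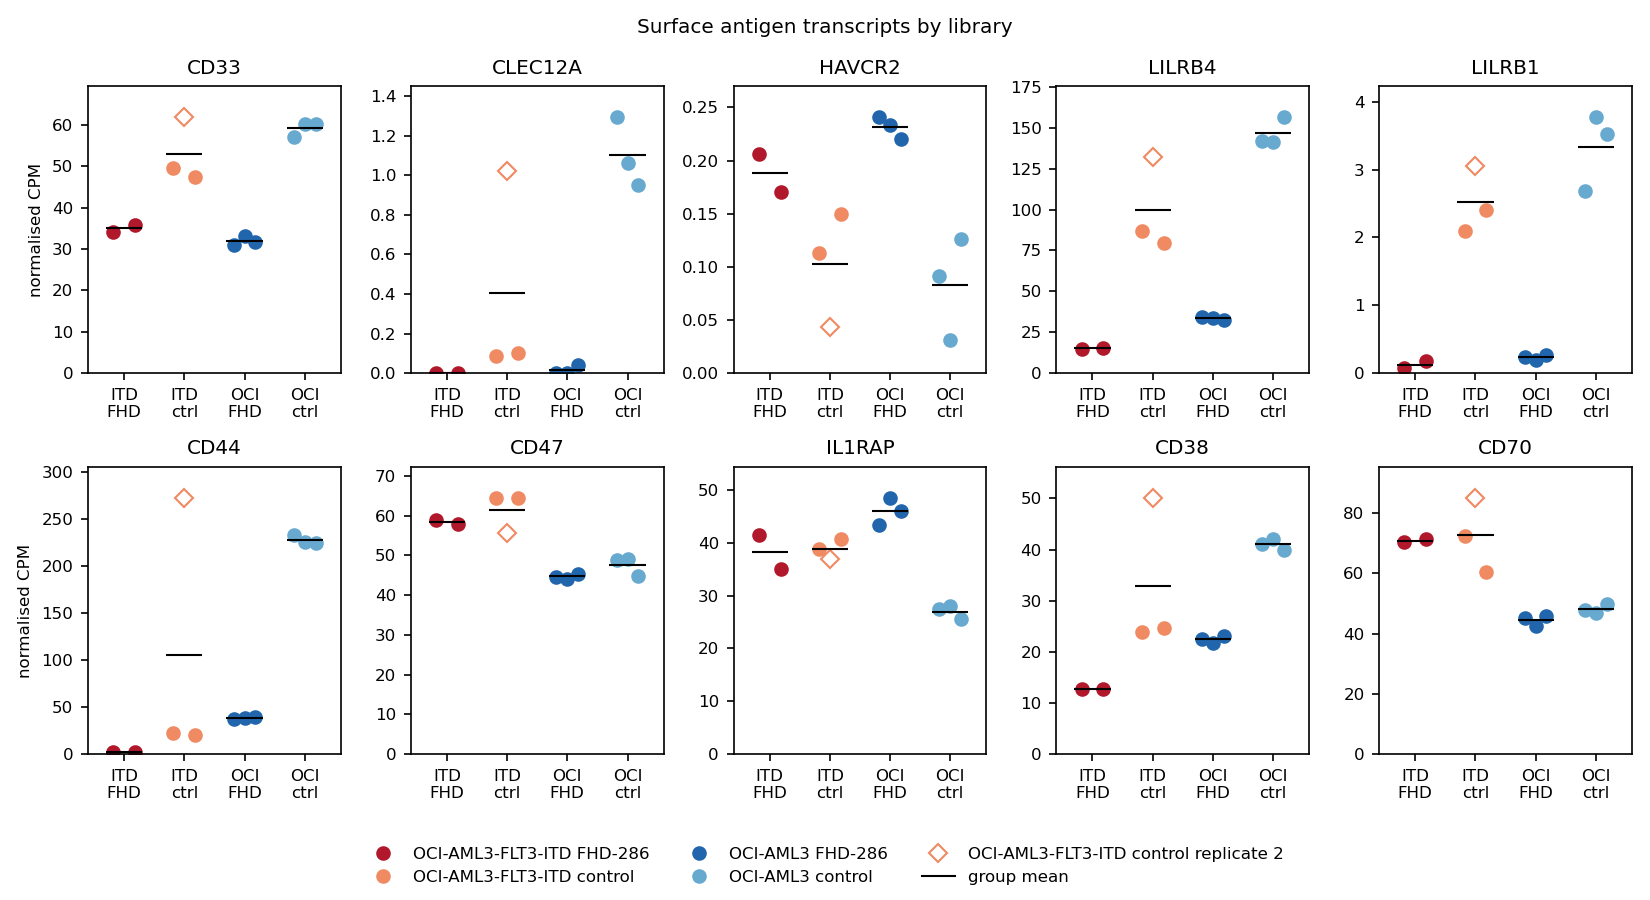
Normalised CPM (vertical axes, linear from 0) of each antigen transcript in each of 11 libraries, with a line at each group mean. Points of treated libraries lie below those of their controls for CD33, CLEC12A, LILRB4, LILRB1, CD44 and CD38, and the open diamond, OCI-AML3-FLT3-ITD control replicate 2, lies at 273 CPM for CD44 against 21.9 and 20.2 CPM in the other controls of its line.

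Levels were compared between genes per kilobase of annotated exon. That length was 1532 bases for CD70, 6328 for LILRB4 and 10004 for CD44, and the order depends on it. CD70 had the highest level per kb of the 10 in every group, at 46.2 CPM per kb in treated FLT3-ITD cells, 47.4 in FLT3-ITD controls, 29.1 in treated OCI-AML3 cells and 31.4 in OCI-AML3 controls. By CPM it was the highest only in treated FLT3-ITD cells (70.8 CPM). In OCI-AML3 controls CD70 (48.1 CPM) was below CD44 (228), LILRB4 (147) and CD33 (59.2). In OCI-AML3 controls LILRB4 (22.3 to 24.8 CPM per kb) and CD44 (22.5 to 23.3) came next, with overlapping ranges, and CD33 (9.56 to 10.1) stood below them. CD38 (5.83 to 6.13) and CD47 (5.44 to 5.98) overlapped each other in the same controls. IL1RAP followed at 2.21 to 2.42 CPM per kb, and LILRB1 (0.536 to 0.755), CLEC12A (0.293 to 0.399) and HAVCR2 (0.00822 to 0.0330) were the lowest. In treated OCI-AML3 cells the order was different, with CD47 (5.35 to 5.52), CD33 (5.20 to 5.54) and LILRB4 (5.17 to 5.43) overlapping behind CD70. IL1RAP (3.76 to 4.20) and CD44 (3.78 to 3.89) also overlapped there, above CD38 (3.16 to 3.37). Treated FLT3-ITD cells had CD47 (7.04 to 7.17), CD33 (5.72 to 5.99), IL1RAP (3.03 to 3.59), LILRB4 (2.35 to 2.41) and CD38 (1.84 to 1.87) in separate ranges, with CD44 far lower at 0.226 to 0.235 CPM per kb. In FLT3-ITD controls CD44 spread over 2.02 to 27.3 CPM per kb, so its place among LILRB4 (12.6 to 20.9), CD33 (7.92 to 10.4), CD47 (6.75 to 7.84), CD38 (3.48 to 7.31) and IL1RAP (3.20 to 3.53) depended on 1 library.

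**Figure D2:**
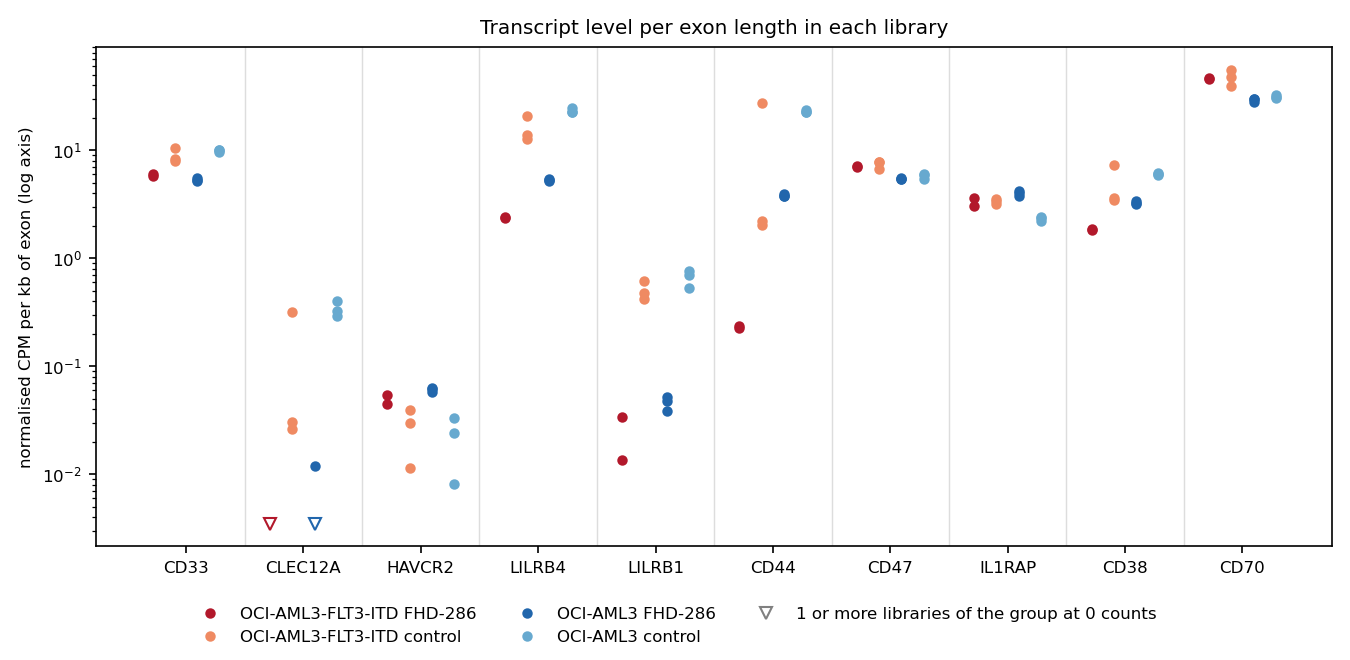
Normalised CPM per kilobase of exon (log axis) of each antigen transcript, 1 point per library, by group. CD70 is the highest of the 10 in every group, and CLEC12A, HAVCR2 and LILRB1 lie below 1 CPM per kb in every library.

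The first comparison asked which antigen transcripts differ after FHD-286. In the FLT3-ITD line 6 of the 10 were lower and none was higher with the threshold at 0.05 for the adjusted p of edgeR (Benjamini-Hochberg over 18908 genes), where 30.5% of all genes tested were called, 14.9% lower and 15.6% higher. CD47, IL1RAP, CD70 and HAVCR2 did not pass. In OCI-AML3 6 were lower and 2 higher, where 41.3% of all genes were called, 21.5% lower and 19.8% higher. The median log2 fold change of the 10 was -0.98 in the FLT3-ITD line and -0.88 in OCI-AML3, beside -0.02 and 0.01 over all genes tested. The first median was the same with CLEC12A set at its counting bound. The antigens were chosen with earlier results of these data known, so their counts and medians beside all genes are descriptive. Leaving out FLT3-ITD control replicate 2 gave 6 lower antigens again in the FLT3-ITD line, where 49.0% of 18662 genes were called, 24.2% lower and 24.8% higher, and the median was -0.70. In OCI-AML3 it gave 6 lower and 2 higher again, where 58.8% were called, 29.8% lower and 29.0% higher. With library totals as scaling, 2254 genes were lower and 4032 higher in the FLT3-ITD line, against 2810 and 2957 with TMM, and 3025 were lower and 5161 higher in OCI-AML3, against 4074 and 3742. Under that scaling the same numbers of antigens were called, 6 and 8.

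CD33 (ENSG00000105383.14, GRCh38 chromosome 19, 51225064 to 51243860, plus strand) was lower in both lines by less than the other ITIM receptors among the antigens. In the FLT3-ITD line its level was 34.2 and 35.8 CPM in treated libraries, against 49.5, 62.0 and 47.3 CPM in control replicates 1, 2 and 3. In OCI-AML3 it was 31.1, 33.1 and 31.7 CPM in treated libraries, against 57.1, 60.3 and 60.3 CPM in controls. Treated and control values did not overlap in either line, and the highest FLT3-ITD control was replicate 2. CD33 fell by 0.60 on the log2 scale in the FLT3-ITD line (SE 0.11, adjusted p 0.00223, edgeR), a 1.51-fold lower level, and the change was -0.47 without that library (adjusted p 1.56e-05). In OCI-AML3 it fell by 0.89 (SE 0.10, adjusted p 4.46e-05), a 1.85-fold lower level.

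CLEC12A (ENSG00000172322.13, chromosome 12, 9951316 to 9995694, plus strand), the lectin-like receptor targeted on AML stem cells, was at or near 0 counts in treated cells of both lines. It had 0 and 0 counts in treated FLT3-ITD libraries, against 6, 71 and 8 counts (0.0850, 1.02 and 0.0999 CPM) in control replicates 1, 2 and 3. It had 0, 0 and 3 counts in treated OCI-AML3 libraries, against 71, 68 and 53 counts (1.30, 1.06 and 0.952 CPM) in controls. All treated libraries were below all controls of their line, and most of the FLT3-ITD control counts came from replicate 2. CLEC12A was at least 19.9-fold lower in the treated FLT3-ITD cells, taking a floor of 3 counts over the group, and at least 4.79-fold lower without that replicate. Its adjusted p was 0.0231 in that line (edgeR) and exceeded 0.05 when either treated library was left out (0.110 and 0.112). In OCI-AML3 the total was 3 counts in treated and 192 in control libraries, an 84.0-fold lower level with a 95% counting interval of 28.3 to 411 (adjusted p 0.0030, edgeR). Exons shared with other genes make up 4.55% of its annotated exon length.

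LILRB4 (ENSG00000186818.12, chromosome 19, 54643889 to 54670359, plus strand), an inhibitory receptor of monocytic cells, fell in both lines. Of the ITIM receptors among the antigens it was the most abundant in controls. Treated FLT3-ITD libraries had 14.9 and 15.3 CPM, against 86.8, 132 and 79.5 CPM in control replicates 1, 2 and 3. Treated OCI-AML3 libraries had 34.4, 33.9 and 32.7 CPM, against 142, 141 and 157 CPM in controls. Treated libraries were far below controls with no overlap, and the treated FLT3-ITD libraries were the lowest of all. LILRB4 fell by 2.72 on the log2 scale in the FLT3-ITD line (SE 0.20, adjusted p 5.92e-06, edgeR), a 6.61-fold lower level, and the change was -2.46 without control replicate 2. In OCI-AML3 it fell by 2.12 (SE 0.16, adjusted p 4.25e-06), a 4.36-fold lower level. The pseudogene VN1R105P overlaps 13.0% of its exon length, and the strand setting of the counting is not given, so reads there cannot be assigned.

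LILRB1 (ENSG00000104972.15, chromosome 19, 54617158 to 54637528, plus strand), a receptor for HLA class I molecules encoded next to LILRB4, was much less abundant and fell by more. Treated FLT3-ITD libraries had 5 and 14 counts (0.0687 and 0.171 CPM), against 148, 212 and 193 counts (2.10, 3.06 and 2.41 CPM) in control replicates 1, 2 and 3. Treated OCI-AML3 libraries had 18, 15 and 20 counts (0.241, 0.195 and 0.259 CPM), against 147, 242 and 196 counts (2.69, 3.78 and 3.52 CPM) in controls. Again no treated library reached a control. LILRB1 fell by 4.36 on the log2 scale in the FLT3-ITD line (SE 0.37, adjusted p 1.68e-05, edgeR) and fell by 3.84 in OCI-AML3 (SE 0.29, adjusted p 4.22e-06), which are 20.5-fold and 14.3-fold lower levels. The FLT3-ITD change was -4.18 without control replicate 2. An antisense gene, LILRB1-AS1, covers 7.09% of its exon length.

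HAVCR2 (ENSG00000135077.8, chromosome 5, 157085832 to 157142869, minus strand) was barely detected. It had 15 and 14 counts (0.206 and 0.171 CPM) in treated FLT3-ITD libraries, against 8, 3 and 12 counts (0.113, 0.0433 and 0.15 CPM) in controls. It had 18, 18 and 17 counts (0.241, 0.234 and 0.220 CPM) in treated OCI-AML3 libraries, against 5, 2 and 7 counts (0.0914, 0.0313 and 0.126 CPM) in controls. Values of treated and control libraries did not overlap in either line, at 2 to 18 counts per library. The log2 fold change was 1.49 in OCI-AML3 (SE 0.51, adjusted p 0.0391, edgeR). That call ended without the low-count filter (adjusted p 0.0559), with DESeq2 (0.0567), and when any 1 of 7 libraries was left out (0.0602 to 0.126). In the FLT3-ITD line HAVCR2 was at 0.85 (SE 0.54, adjusted p 0.260) and did not pass, and it was at 0.50 without control replicate 2 (adjusted p 0.462).

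CD44 (ENSG00000026508.16, chromosome 11, 35138870 to 35232402, plus strand), the hyaluronan receptor, differed both by treatment and by line. Its level was 2.35 and 2.26 CPM in treated FLT3-ITD libraries, against 21.9, 273 and 20.2 CPM in control replicates 1, 2 and 3. In OCI-AML3 it was 37.8, 38.0 and 38.9 CPM in treated libraries, against 233, 226 and 225 CPM in controls. Within each group the values lay close together except for FLT3-ITD control replicate 2, which was at the level of OCI-AML3 controls and slightly above them. CD44 fell by 5.51 on the log2 scale in the FLT3-ITD line with that library (SE 1.16, adjusted p 0.00497, edgeR) and fell by 3.19 without it (SE 0.09, adjusted p 2.77e-16), a 9.14-fold lower level. In OCI-AML3 it fell by 2.57 (SE 0.82, adjusted p 0.0276), a 5.96-fold lower level. The OCI-AML3 call was lost when any 1 of the 6 libraries of that line was left out (adjusted p 0.0549 to 0.0841, log2 fold change -2.59 to -2.56). Without FLT3-ITD control replicate 2 the OCI-AML3 change had an SE of 0.06 and an adjusted p of 3.26e-18. The FLT3-ITD call was also lost without either treated library (0.0577 and 0.0537).

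CD38 (ENSG00000004468.12, chromosome 4, 15778275 to 15853230, plus strand), the NAD-consuming ectoenzyme, followed CD44 at a smaller size. Treated FLT3-ITD libraries had 12.8 and 12.6 CPM, against 23.9, 50.1 and 24.7 CPM in control replicates 1, 2 and 3. Treated OCI-AML3 libraries had 22.4, 21.7 and 23.1 CPM, against 41.1, 42.0 and 40.0 CPM in controls. The treated OCI-AML3 values lay just below the FLT3-ITD controls other than replicate 2, and no treated library overlapped the controls of its own line. CD38 fell by 1.37 on the log2 scale in the FLT3-ITD line (SE 0.27, adjusted p 0.00359, edgeR) and fell by 0.93 without control replicate 2 (SE 0.08, adjusted p 3.11e-09). In OCI-AML3 it fell by 0.87 (SE 0.23, adjusted p 0.0118), a 1.83-fold lower level.

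IL1RAP (ENSG00000196083.9, chromosome 3, 190514051 to 190659750, plus strand), the shared chain of interleukin-1 family receptors, responded differently in the lines. Treated FLT3-ITD libraries had 41.5 and 35.1 CPM, against 38.9, 37.0 and 40.8 CPM in controls. Treated OCI-AML3 libraries had 43.4, 48.5 and 46.0 CPM, against 27.4, 28.0 and 25.5 CPM in controls. Treated and control values were mixed in the FLT3-ITD line and fully apart in OCI-AML3. IL1RAP rose by 0.77 on the log2 scale in OCI-AML3 (SE 0.08, adjusted p 4.94e-05, edgeR), a 1.71-fold higher level. The FLT3-ITD change was -0.02 (SE 0.09, adjusted p 0.886). Here control replicate 2 of the FLT3-ITD line sat near the other controls of its label and not near OCI-AML3 controls. Overlapping annotation makes up 4.63% of the exon length of IL1RAP.

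CD47 (ENSG00000196776.14, chromosome 3, 108043094 to 108091862, minus strand), the anti-phagocytic ligand of SIRPA, moved little with FHD-286. Its level was 58.9 and 57.9 CPM in treated FLT3-ITD libraries, against 64.3, 55.6 and 64.5 CPM in control replicates 1, 2 and 3. In OCI-AML3 it was 44.6, 44.0 and 45.4 CPM in treated libraries, against 48.9, 49.2 and 44.8 CPM in controls. Treated and control ranges overlapped in both lines, in the FLT3-ITD line through control replicate 2 alone. The log2 fold changes were -0.07 (SE 0.08, adjusted p 0.543, edgeR) in the FLT3-ITD line and -0.09 (SE 0.07, adjusted p 0.351) in OCI-AML3. Without that replicate the FLT3-ITD change was -0.14 (SE 0.07, adjusted p 0.104), and with library totals as scaling it was 0.03 (adjusted p 0.796).

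CD70 (ENSG00000125726.10, chromosome 19, 6583183 to 6604103, minus strand), the CD27 ligand, did not pass the test in either line. Treated FLT3-ITD libraries had 70.3 and 71.4 CPM, against 72.3, 85.1 and 60.5 CPM in control replicates 1, 2 and 3. Treated OCI-AML3 libraries had 45.3, 42.6 and 45.7 CPM, against 47.9, 46.8 and 49.8 CPM in controls. The FLT3-ITD controls spread on both sides of the treated libraries, while the treated OCI-AML3 libraries lay just below their controls. The log2 fold changes were -0.04 (SE 0.12, adjusted p 0.847, edgeR) in the FLT3-ITD line and -0.11 (SE 0.10, adjusted p 0.424) in OCI-AML3. The FLT3-ITD value turned positive without control replicate 2 (0.09, SE 0.08, adjusted p 0.356) and with library totals as scaling (0.07, adjusted p 0.672).

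**Figure D3:**
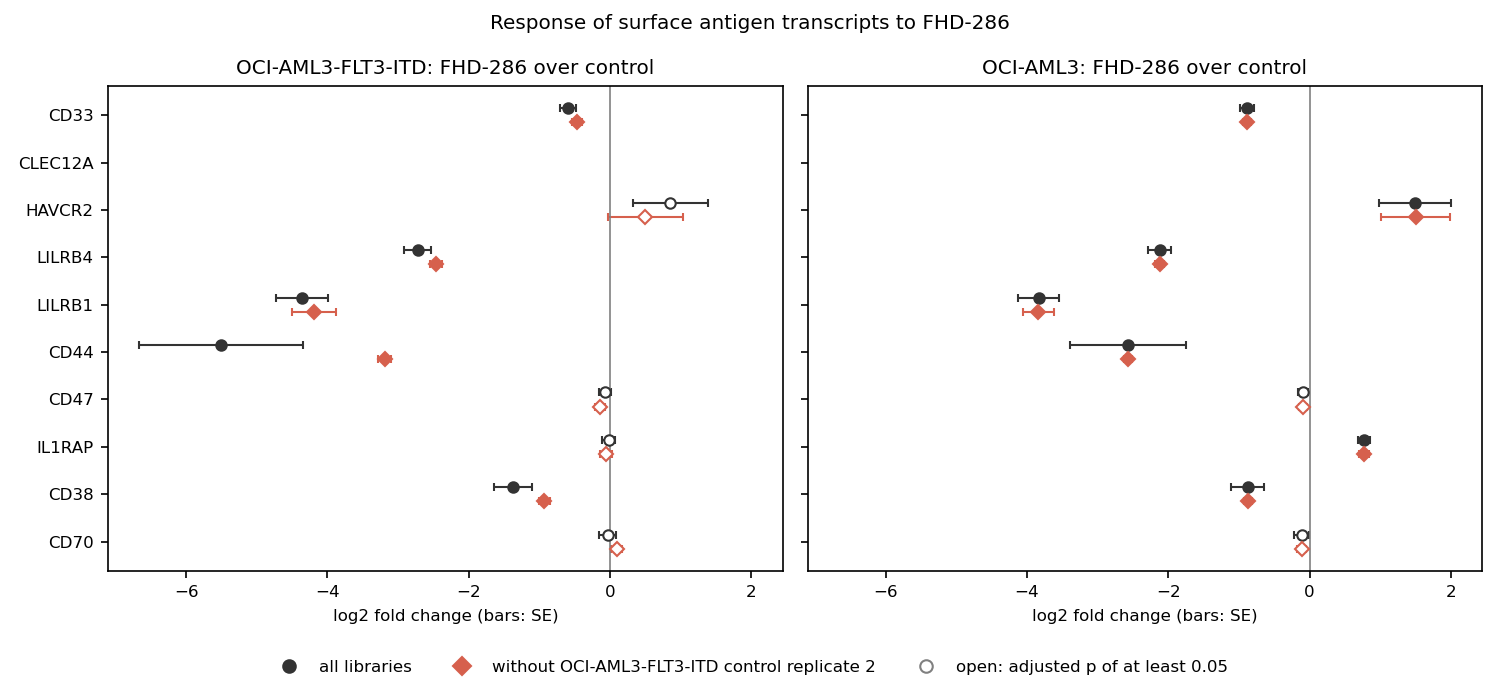
Log2 fold change of FHD-286 over control with its SE (horizontal axes) for the antigen transcripts in OCI-AML3-FLT3-ITD (left) and OCI-AML3 (right), with all libraries and without OCI-AML3-FLT3-ITD control replicate 2. CLEC12A is left out because its fitted values rest on 0 to 3 counts, and CD44 in the FLT3-ITD line is at -5.51 with all libraries and at -3.19 without that replicate.

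The difference between the responses, FLT3-ITD effect minus OCI-AML3 effect, was tested as an interaction. Of the 10 antigens 1 passed, IL1RAP, where 3.36% of all genes tested were called, 1.38% with a lower and 1.98% with a higher FLT3-ITD effect. Its difference was -0.79 on the log2 scale (SE 0.13, adjusted p 0.0105, edgeR), and the call was lost without FLT3-ITD FHD-286 replicate 2 (-0.67, adjusted p 0.0570). Differences that missed the threshold were -2.93 for CD44 (SE 1.27, adjusted p 0.256), -0.60 for LILRB4 (SE 0.24, adjusted p 0.213), 0.29 for CD33 (SE 0.14, adjusted p 0.313) and -0.50 for CD38 (SE 0.35, adjusted p 0.484). CD47 and CD70 had differences of 0.02 (SE 0.11) and 0.08 (SE 0.16). Without FLT3-ITD control replicate 2 the count was 4, 3 lower and 1 higher, where 17.0% of genes were called, 7.39% lower and 9.63% higher. IL1RAP was then at -0.83 (adjusted p 2.01e-05), CD44 at -0.62 (SE 0.11, adjusted p 0.000311), LILRB4 at -0.34 (SE 0.10, adjusted p 0.0192) and CD33 at 0.42 (SE 0.09, adjusted p 0.0029). In those libraries CD44 and LILRB4 fell more in the FLT3-ITD line than in OCI-AML3 and CD33 fell less, while CD38 was at -0.06 (SE 0.10, adjusted p 0.752).

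The lines were then compared within each treatment. Among treated cells 5 antigens passed, with CD47 and CD70 higher and LILRB4, CD44 and CD38 lower in the FLT3-ITD line, where 26.0% of all genes were called, 14.3% higher and 11.7% lower. Among controls 4 passed, with CD47, IL1RAP and CD70 higher and LILRB4 lower in the FLT3-ITD line, where 28.0% were called, 14.5% higher and 13.5% lower. With library totals as scaling the split among controls was 3457 higher and 1648 lower, against 2738 and 2551 with TMM. The FHD-286 comparisons share libraries with these, so the values are given side by side. CD44 in treated cells was 16.6-fold lower in the FLT3-ITD line (log2 fold change -4.05, SE 1.09, adjusted p 0.0207, edgeR), a call lost without either treated FLT3-ITD library (0.136 and 0.130), while without FLT3-ITD control replicate 2 it had an SE of 0.09 and an adjusted p of 9.25e-19. LILRB4 was 2.23-fold lower there (-1.16, SE 0.18, adjusted p 0.00162). CD38 was at -0.82 (SE 0.27, adjusted p 0.0455), a call that ended with library totals as scaling (0.0623) and when any 1 of 8 libraries was left out (0.0664 to 0.184). CD70 was at 0.67 (SE 0.12, adjusted p 0.00264) and CD47 at 0.39 (SE 0.08, adjusted p 0.00691), and the CD47 call was lost without FLT3-ITD FHD-286 replicate 1 (0.0653).

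IL1RAP was at -0.26 in the treated lines (SE 0.09, adjusted p 0.0636), and passed without FLT3-ITD control replicate 2 (adjusted p 0.0082). That made 6 antigens, 2 higher and 4 lower, where 46.9% of genes were called, 24.2% higher and 22.8% lower. CD33 (0.13), LILRB1 (-0.92, adjusted p 0.10) and HAVCR2 (-0.30) did not pass among treated cells. CLEC12A had 0 counts in the treated FLT3-ITD libraries and 3 in the treated OCI-AML3 libraries, both at or under the floor, so no fold is given.

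Among controls the answer depended on FLT3-ITD control replicate 2. With it CD70 was at 0.59 (SE 0.10, adjusted p 0.00325, edgeR), IL1RAP at 0.53 (SE 0.08, adjusted p 0.00211), CD47 at 0.37 (SE 0.07, adjusted p 0.00552) and LILRB4 at -0.56 (SE 0.16, adjusted p 0.0231). The LILRB4 call was lost with library totals (0.0514), in a fit of only the 2 control groups (0.123) and without any 1 of 5 other libraries (0.0526 to 0.0853). Without replicate 2 the count was 9, with 3 higher and 6 lower, where 49.4% of genes were called, 24.1% higher and 25.4% lower. CD44 was then 10.8-fold lower in the FLT3-ITD line (-3.44, SE 0.07, adjusted p 6.77e-19), against -1.12 with it (SE 0.78, adjusted p 0.309). CLEC12A was 11.7-fold lower (-3.55, SE 0.47, adjusted p 2.95e-06), against -1.46 with it (SE 0.82). CD38 was at -0.76 (SE 0.07, adjusted p 1.07e-08), LILRB4 at -0.82 (adjusted p 2.53e-09), LILRB1 at -0.56 (adjusted p 0.0180) and CD33 at -0.29 (adjusted p 0.000928). Replicate 2 was the highest FLT3-ITD control for CD44, CLEC12A, CD38, LILRB4, CD33, LILRB1 and CD70, and the lowest for CD47, IL1RAP and HAVCR2. Its part in these differences beyond leaving it out was not tested.

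**Figure D4:**
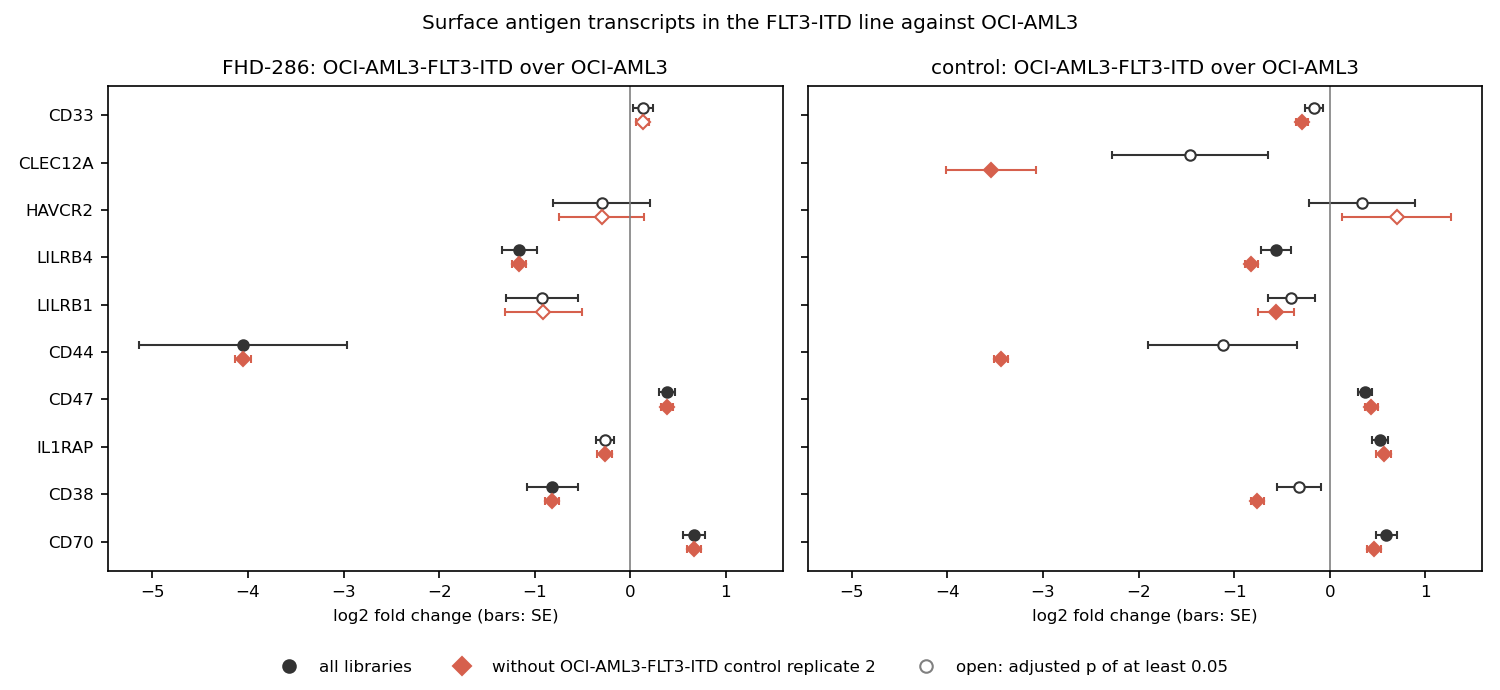
Log2 fold change of OCI-AML3-FLT3-ITD over OCI-AML3 with its SE (horizontal axes) for the antigen transcripts in treated (left) and control cells (right), with all libraries and without OCI-AML3-FLT3-ITD control replicate 2. CD47 and CD70 lie right of 0 in both panels, and among controls CD44 is at -1.12 with all libraries and at -3.44 without that replicate; CLEC12A is left out among treated cells because of its 0 to 3 counts.

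Likeness between transcripts was described over 10 libraries, leaving out FLT3-ITD control replicate 2, as Pearson's r of log2 CPM. These libraries come from 4 groups and share the treatment and line differences, so r has no p. Among the antigens the closest pairs were CD44 with CD38 (r = 0.98), LILRB4 with LILRB1 (r = 0.97) and LILRB4 with CD38 (r = 0.95). The most negative r were those of CLEC12A with IL1RAP (-0.87) and CD33 with IL1RAP (-0.86). Against the 11517 or 11518 other genes whose mean log2 CPM reached 1, LILRB4 was most like PDLIM2, DCAF4 and SPNS3, with r of 0.999, 0.998 and 0.998. CD44 was most like CXXC5, PSD4 and PLCG2, each with r between 0.995 and 0.997. CD33 was most like NOP56, SAMHD1 and TERT (r of 0.992, 0.991 and 0.991), and CD38 like DLX3, BARX1-DT and INPP5A (0.994 each). LILRB1 was most like SLC12A9 (0.995), CLEC12A like GASK1B (0.993), CD70 like NPC2 (0.992) and CD47 like BCAN-AS2 (0.990). For these 8 antigens between 136 and 573 genes exceeded r = 0.95. IL1RAP had 4 such genes and was most like KRCC1 (0.976), PTPRC (0.965) and XBP1 (0.958). HAVCR2 had 0, with KIZ the nearest at 0.924.

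The counts in each list below stand beside these shares of all genes tested. In the FLT3-ITD line 14.9% were lower and 15.6% higher, and in OCI-AML3 21.5% were lower and 19.8% higher. Without FLT3-ITD control replicate 2 the shares were 24.2% and 24.8% in the FLT3-ITD line, and 29.8% and 29.0% in OCI-AML3. Genes were named by p within each line, so a gene given for a single line may also be called in the other. Of 17 Siglec receptors and ITIM phosphatase genes (CD33 not among them) 10 could be tested. Of these 5 fell and none rose in the FLT3-ITD line, and 5 fell and 1 rose in OCI-AML3. The medians were -1.22 and -0.35 on the log2 scale, the second -0.54 with a gene at 0 counts set at its bound. PTPN6, the phosphatase recruited by ITIMs, was at 56.0 ± 7.71 CPM in treated and 370 ± 19.6 CPM in control FLT3-ITD cells (log2 fold change -2.72, adjusted p 3.18e-07, edgeR). In OCI-AML3 it was at 101 ± 6.37 CPM in treated and 472 ± 41.1 CPM in control cells (-2.22, adjusted p 1.56e-07). All ± values are SD with n = 2 for treated FLT3-ITD cells and n = 3 for the other groups. SIGLEC9, an inhibitory Siglec, was at -3.37 in the FLT3-ITD line and at -2.73 in OCI-AML3 (adjusted p 2.18e-05 and 1.82e-05). The kinase SYK was at -0.75 and -0.69 (adjusted p 9.61e-05 and 3.53e-05). INPP5D, an inositol phosphatase, rose by 0.89 in OCI-AML3 (adjusted p 5.83e-05) and was at 870 ± 12.3 CPM in treated and 471 ± 24.6 CPM in control cells. Without FLT3-ITD control replicate 2 the FLT3-ITD list had 6 lower and 2 higher.

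Of 12 further LILR and LAIR genes and their adaptors 9 could be tested. In the FLT3-ITD line 6 were lower and 1 higher (median -1.24), and in OCI-AML3 5 were lower and 1 higher (median -1.0). Without FLT3-ITD control replicate 2 the FLT3-ITD median was -1.58. LILRA2, an activating member of the cluster, was at 7.38 ± 1.47 CPM in treated and 81.9 ± 13.6 CPM in control FLT3-ITD cells (-3.47, adjusted p 1.40e-06, edgeR), and at 8.07 ± 1.25 CPM in treated and 79.5 ± 4.21 CPM in control OCI-AML3 cells (-3.30, adjusted p 2.85e-07). LILRA1 had 1 count in treated and 453 in control OCI-AML3 libraries, a 594-fold lower level with a 95% counting interval of 106 to 23531. In the FLT3-ITD line LILRA1 fell by 5.42 (adjusted p 2.53e-05). FCER1G, the signalling adaptor of activating receptors, was lower in the FLT3-ITD line (-0.67, adjusted p 0.000938). LAIR1, an inhibitory collagen receptor, rose by 0.22 in the FLT3-ITD line (adjusted p 0.0438) and by 0.90 in OCI-AML3 (adjusted p 4.08e-06). LILR genes are close paralogs, and how reads shared between them were counted is not given, so their single values are uncertain. Other genes overlap 15.8% of the exon length of LILRA2.

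Of 13 ligand genes of LILRB receptors and HAVCR2 12 were tested, with 3 lower and 1 higher in the FLT3-ITD line and 2 lower and 2 higher in OCI-AML3 (medians -0.25 and -0.14). The FLT3-ITD line had 5 lower and 1 higher without its control replicate 2, with a median of -0.48. LGALS9, the galectin that binds HAVCR2, had the smallest p of the list in both lines. It was at 2.28 ± 0.11 CPM in treated and 30.3 ± 1.48 CPM in control FLT3-ITD cells (-3.73, adjusted p 8.04e-08, edgeR) and at 1.91 ± 0.14 CPM in treated and 40.1 ± 3.46 CPM in control OCI-AML3 cells (-4.39, adjusted p 4.12e-09). HLA-B, a class I ligand of LILRB1, was at -0.63 and -0.60 (adjusted p 0.00117 and 0.000391). B2M, the light chain of class I molecules, was at 0.26 in the FLT3-ITD line (adjusted p 0.0453), and HLA-E, a class I molecule of low polymorphism, was at -0.27 in the FLT3-ITD line (adjusted p 0.0756) and at 0.95 in OCI-AML3 (adjusted p 2.30e-05). FN1, fibronectin, fell by 0.51 in the FLT3-ITD line (adjusted p 0.00618) and rose by 0.35 in OCI-AML3 (adjusted p 0.0153). HLA class I genes are near-identical in sequence, which makes their counts uncertain, and 18.9% of the exon length of HLA-B overlaps other genes.

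Of 17 C-type lectin and adaptor genes 6 were tested, with 4 lower and 1 higher in each line (medians -1.83 in the FLT3-ITD line and -1.20 in OCI-AML3). CLEC11A, a secreted growth factor, was at 92.7 ± 16.4 CPM in treated and 382 ± 29.5 CPM in control FLT3-ITD cells (-2.04, adjusted p 1.54e-06, edgeR), and at 97.4 ± 2.43 CPM in treated and 458 ± 25.2 CPM in control OCI-AML3 cells (-2.23, adjusted p 1.85e-07). CLEC7A, the beta-glucan receptor encoded near CLEC12A, had 1 count in treated and 101 in control FLT3-ITD libraries, and 3 in treated and 66 in control OCI-AML3 libraries. These are 71.1-fold and 28.9-fold lower levels, with 95% counting intervals of 12.5 to 2834 and 9.46 to 144. CLEC10A, a macrophage galactose lectin, fell by 2.82 in the FLT3-ITD line (adjusted p 0.00093), at 0.0717 CPM in treated and 0.515 CPM in control cells. In OCI-AML3 CLEC10A fell by 1.15 (adjusted p 0.0217). CLEC2D, a ligand of a natural killer cell receptor, rose by 0.86 in the FLT3-ITD line (adjusted p 0.00274) and by 1.28 in OCI-AML3 (adjusted p 7.74e-05).

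Of 13 genes of the CD47 and SIRP checkpoint 8 were tested. In the FLT3-ITD line 6 were lower and none higher, and in OCI-AML3 4 were lower and 1 higher (medians -0.92 and -0.88). Without FLT3-ITD control replicate 2 there were 7 lower and 1 higher in the FLT3-ITD line, and 5 lower and 1 higher in OCI-AML3. SIRPA, the receptor of CD47, was at 75.1 ± 0.93 CPM in treated and 167 ± 9.23 CPM in control FLT3-ITD cells (-1.15, adjusted p 4.45e-06, edgeR), and at 81.1 ± 2.19 CPM in treated and 168 ± 11.1 CPM in control OCI-AML3 cells (-1.05, adjusted p 1.58e-06). QPCTL, the enzyme that modifies the SIRPA binding site of CD47, fell by 0.68 in the FLT3-ITD line (adjusted p 0.00686) and by 0.85 in OCI-AML3 (adjusted p 0.000535). CALR, whose product is an eat-me signal at the surface, fell by 0.91 in OCI-AML3 (adjusted p 0.00282), and its receptor gene LRP1 rose by 0.92 there (adjusted p 0.0168). ITGAM, an integrin of phagocytes, fell by 1.71 in the FLT3-ITD line (adjusted p 0.000464). SLAMF8 fell by 3.52 there (adjusted p 0.00587), with 69.0% of its exon length shared with other genes.

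Of 20 genes of CD44 ligands, splicing factors and membrane linkers 18 were tested, with 5 lower and 3 higher in each line (medians -0.17 in the FLT3-ITD line and 0.08 in OCI-AML3). There were 6 lower and 5 higher in each line without FLT3-ITD control replicate 2, and the FLT3-ITD median was 0.18. CD74, a partner of CD44 in MIF signalling, was at -1.20 in the FLT3-ITD line and at -1.17 in OCI-AML3 (adjusted p 2.63e-05 and 6.24e-06, edgeR). The hyaluronidase gene HYAL3, with 14.3% of its exon length shared, was at -0.78 and -1.22 (adjusted p 0.000491 and 6.51e-06). VCAN, a proteoglycan that binds hyaluronan, fell by 1.26 in the FLT3-ITD line (adjusted p 0.00187) and by 1.97 in OCI-AML3 (adjusted p 2.84e-05). RDX, which links CD44 to actin, rose by 0.60 and 0.47 (adjusted p 0.000272 and 0.000388).

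Of 19 receptor, ligand and signalling genes of the IL-1 family 15 were tested, with 5 lower and 3 higher in the FLT3-ITD line (median -0.20) and 3 lower and 7 higher in OCI-AML3 (median 0.37). The FLT3-ITD median was 0.11 without control replicate 2. IL1R1, the ligand-binding partner of IL1RAP, rose in both lines. It was at 2.44 ± 0.29 CPM in treated and 0.467 ± 0.12 CPM in control FLT3-ITD cells (2.37, adjusted p 7.97e-05, edgeR), and at 4.08 ± 0.27 CPM in treated and 0.727 ± 0.19 CPM in control OCI-AML3 cells (2.49, adjusted p 1.81e-05). IRAK3, an inhibitor of the pathway, rose by 1.03 in OCI-AML3 (adjusted p 3.05e-05), and the adaptor gene MYD88 fell by 0.53 there (adjusted p 0.000134). IL1RN, the receptor antagonist, fell by 0.83 in the FLT3-ITD line (adjusted p 0.00026) and rose by 0.54 in OCI-AML3 (adjusted p 0.00092). The kinase gene IRAK1 fell by 0.81 in the FLT3-ITD line (adjusted p 0.000566) and by 0.59 in OCI-AML3 (adjusted p 0.00109).

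Of 14 genes of NAD and adenosine metabolism around CD38 11 were tested, with 5 lower and 3 higher in each line (medians 0.03 in the FLT3-ITD line and -0.30 in OCI-AML3), and the FLT3-ITD median was -0.04 without control replicate 2. NT5E, the ectoenzyme CD73 that makes adenosine, was at 83.8 ± 3.06 CPM in treated and 32.8 ± 0.74 CPM in control OCI-AML3 cells (1.35, adjusted p 1.52e-05, edgeR). In the FLT3-ITD line NT5E rose by 0.76 (adjusted p 0.00188). NADK, which phosphorylates NAD, rose by 0.52 in the FLT3-ITD line and by 0.55 in OCI-AML3 (adjusted p 0.00131 and 0.000284). BST1, the paralog of CD38 encoded beside it, fell by 1.25 in the FLT3-ITD line (adjusted p 0.000262) and by 0.61 in OCI-AML3 (adjusted p 0.00476). RARA, the retinoic acid receptor that is known to drive CD38, was at -0.94 and -0.67 (adjusted p 0.000739 and 0.0015), with 17.9% of its exon length shared. NMNAT2 had 1 count in treated and 82 in control FLT3-ITD libraries, a 57.7-fold lower level with a 95% counting interval of 10.1 to 2306. In OCI-AML3 NMNAT2 fell by 2.60 (adjusted p 0.0017).

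Of 24 TNF superfamily genes near CD70 in function 21 were tested, with 7 lower and 2 higher in the FLT3-ITD line (median -0.07) and 4 lower and 2 higher in OCI-AML3 (median -0.18, or -0.26 with genes at 0 counts set at their bound). Without FLT3-ITD control replicate 2 the list had 8 lower and 4 higher in the FLT3-ITD line (median -0.25) and 9 lower and 6 higher in OCI-AML3. TNFSF13B, a B cell survival factor, was at -1.04 in the FLT3-ITD line and at -1.17 in OCI-AML3 (adjusted p 0.00999 and 0.00159, edgeR). TNFRSF1B, a TNF receptor, fell by 1.24 in the FLT3-ITD line (adjusted p 0.00025). SIVA1, which binds the tail of CD27, fell by 0.72 in OCI-AML3 (adjusted p 0.000805), where the ligand gene TNFSF4 rose by 1.31 (adjusted p 9.66e-05). TNFRSF4, the receptor of TNFSF4, was at 1.21 ± 0.24 CPM in treated and 0.141 ± 0.11 CPM in control FLT3-ITD cells (3.07, adjusted p 0.0108). Without FLT3-ITD control replicate 2 the FLT3-ITD changes were -0.69 for TNFSF13B, -1.03 for TNFRSF1B and 2.60 for TNFRSF4.

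Of 33 other surface antigens discussed in AML 19 were tested, with 8 lower and 1 higher in the FLT3-ITD line (median -0.41) and 4 lower and 3 higher in OCI-AML3 (median -0.24). Without FLT3-ITD control replicate 2 the list had 8 lower and 2 higher in the FLT3-ITD line (median -0.18) and 10 lower and 7 higher in OCI-AML3. Of all genes 14.9% were lower and 15.6% higher in the FLT3-ITD line with that library, and 24.2% and 24.8% without it. In OCI-AML3 these shares were 21.5% and 19.8% with it, and 29.8% and 29.0% without it. CD300LF, an inhibitory myeloid receptor, was at 0.424 ± 0.10 CPM in treated and 11.1 ± 5.82 CPM in control FLT3-ITD cells (-4.71, adjusted p 2.49e-05, edgeR), and at 1.46 ± 0.19 CPM in treated and 21.3 ± 1.63 CPM in control OCI-AML3 cells (-3.87, adjusted p 8.64e-06). VSIR, the checkpoint protein VISTA, was at 28.2 ± 0.87 CPM in treated and 116 ± 14.3 CPM in control FLT3-ITD cells (-2.04, adjusted p 1.45e-06), and at 69.0 ± 3.79 CPM in treated and 132 ± 10.1 CPM in control OCI-AML3 cells (-0.93, adjusted p 2.88e-05). ADGRE2, an adhesion G protein-coupled receptor, was higher with FHD-286 in both lines, at 182 ± 8.64 CPM in treated and 91.1 ± 13.4 CPM in control FLT3-ITD cells (1.00, adjusted p 7.14e-05) and at 125 ± 2.50 CPM in treated and 68.3 ± 3.06 CPM in control OCI-AML3 cells (0.88, adjusted p 4.99e-05). Other genes overlap 15.7% of the exon length of ADGRE2. Without FLT3-ITD control replicate 2 the FLT3-ITD changes were -4.20 for CD300LF, -1.94 for VSIR and 0.90 for ADGRE2.

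**Figure D5:**
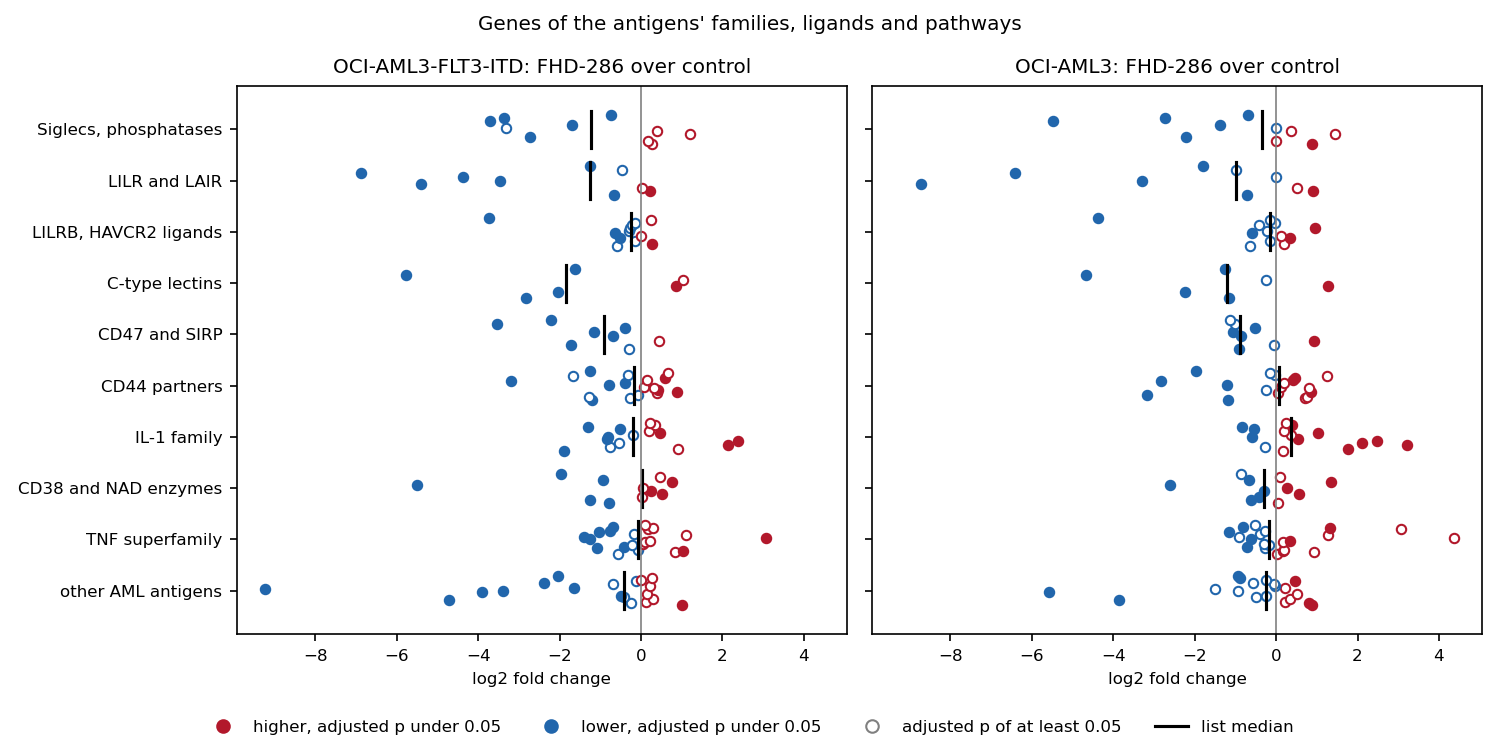
Log2 fold change of FHD-286 over control (horizontal axes) for each tested gene of 10 lists of related genes in OCI-AML3-FLT3-ITD (left) and OCI-AML3 (right), with filled points at an adjusted p under 0.05 and a bar at each list median. The C-type lectin list has medians of -1.83 and -1.20 and the LILR and LAIR list -1.24 and -1.0, and fitted values of genes with few counts depend on the prior count.

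Transcription factor genes with known sites in myeloid surface gene promoters were measured in the same libraries. Of 10 factors 6 were lower and none higher in the FLT3-ITD line, and 6 were lower and 4 higher in OCI-AML3 (medians -1.18 and -0.37). Without FLT3-ITD control replicate 2, 9 factors passed the filter, of which 8 were lower in the FLT3-ITD line, and 5 were lower and 4 higher in OCI-AML3 (medians -0.82 and -0.24). SPI1, which encodes PU.1, was at 23.6 ± 0.65 CPM in treated and 290 ± 23.1 CPM in control FLT3-ITD cells (-3.62, adjusted p 8.04e-08, edgeR), and at 44.5 ± 4.02 CPM in treated and 319 ± 22.4 CPM in control OCI-AML3 cells (-2.84, adjusted p 2.47e-08). IRF8, a monocytic factor, was at -2.08 in the FLT3-ITD line and -1.76 in OCI-AML3 (adjusted p 8.37e-06 and 4.40e-06). MYC, a driver of growth, was at -1.82 and -1.87 (adjusted p 2.75e-06 and 4.60e-07), and KLF4 was at -0.26 in the FLT3-ITD line (adjusted p 0.0578) and rose by 0.92 in OCI-AML3 (adjusted p 1.49e-05). The difference between the SPI1 effects, FLT3-ITD minus OCI-AML3, was -0.78 (SE 0.13, adjusted p 0.0128). No link between these factors and the antigens was tested.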

How the data were processed

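The 11 libraries of 4 groups were deposited by the authors as a table of raw, whole-number counts with 58037 Ensembl gene identifiers. The submitters' processing notes name STAR as aligner and hg38 as genome build. Which counter was used, how it treated strand and which annotation it read are not given in the sources used here. Coordinates, symbols and exon overlaps came from GENCODE 29, in which 57433 identifiers were found (56948 with a symbol), and promoter windows from RefSeq.

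Genes were filtered with filterByExpr (minimum count 10, minimum total 15), scaled by TMM and tested in edgeR 4.0.16 (R 4.3.3) in 1 model of the 4 groups with 7 residual degrees of freedom. Quasi-likelihood tests were two-sided, the Benjamini-Hochberg adjustment covered every gene that passed the filter, and adjusted p under 0.05 was called. Each SE was taken as |log2 fold change| over the root of F. CPM per kb divides by the length of the union of annotated exons. Totals of 1 to 3 counts are given as ratios with exact binomial 95% intervals, for counting error only, and totals of 0 as bounds at a floor of 3 counts over the group. The model was tested on simulated counts. Of genes changed 2-fold there, it called 45% for FHD-286 in the FLT3-ITD line, 51% in OCI-AML3 and 26% for the difference between the effects. Of genes changed 4-fold it called 69%, 75% and 59%, so a gene that did not pass may still differ. In these comparisons 3 or 4 unchanged genes were called.

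The antigens were taken as a named list, and the other lists were written for this description. From each list the 3 called genes with the smallest p and 1 called gene of the minority direction could be named in each FHD-286 comparison. The antigens and lists were chosen with earlier results of these data known. Likeness used genes whose mean log2 CPM reached 1. Alternatives were DESeq2 size factors, library totals, no filter, the Wald test of DESeq2 1.42.0, only the groups compared, a replicate block, and leaving out each library. Correlations of deviations between same-numbered replicates were -0.03 to 0.12. With so few replicates these values cannot show whether the numbers pair the samples, and the labels do not say. The main model holds no pairing. SIGLEC5 has a repeated symbol and is not named.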

Additional observations from a re-analysis of the deposited data

Results flagged for a closer look

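The response of IL1RAP to FHD-286 differed between the lines. The FLT3-ITD effect minus the OCI-AML3 effect was -0.79 on the log2 scale (SE 0.13, adjusted p 0.0105, edgeR interaction test over all genes). Without FLT3-ITD FHD-286 replicate 2 the call was lost (-0.67, adjusted p 0.0570). Treated libraries had 41.5 and 35.1 CPM in the FLT3-ITD line, where controls had 38.9, 37.0 and 40.8 CPM. Treated OCI-AML3 libraries had 43.4, 48.5 and 46.0 CPM, and their controls 27.4, 28.0 and 25.5 CPM. The treated FLT3-ITD libraries lie 1 on each side of their controls' range, and the FLT3-ITD controls already stand above OCI-AML3 controls by 0.53.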

How the results depend on the processing

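Over processing alternatives 271 of 281 values kept their direction and side of the threshold, 8 lost a call and 2 gained one. Over fits that left out 1 library the numbers were 506, 34 and 10 of 550, and no value called in either fit changed sign. The count of antigens called with FHD-286 in the FLT3-ITD line was 2 with only the groups compared, a fit that called 8.95% of 18074 genes, and there CD33, CD44 and CD38 had adjusted p of 0.0709, 0.0741 and 0.0726 and CLEC12A did not pass the filter. Leaving out 1 library gave 4 to 6 antigens called in that line, 6 to 8 in OCI-AML3, 0 to 4 for the difference between lines, 3 to 9 among controls and 2 to 6 among treated cells. The shares of all genes called in those fits were 14.5% to 49.0%, 32.7% to 58.8%, 0.524% to 17.0%, 15.4% to 49.4% and 9.53% to 46.9%, in the same order of comparisons. DESeq2 gave 5 in the FLT3-ITD line, where it called 33.5% of genes, and 6 in OCI-AML3, where it called 43.3%, with no adjusted p for CD44. The replicate block gave 6 in the FLT3-ITD line, 8 in OCI-AML3, 1 for the difference, 4 among controls and 5 among treated cells, as without it. In that fit 27.3%, 39.7%, 1.85%, 24.9% and 23.6% of genes were called. Whether the replicate numbers pair the samples is not given by the labels. Scaling by library totals moved the median of all genes to 0.17 for FHD-286 in OCI-AML3 and to 0.11 among controls, and no antigen called there changed direction. Depth limits CLEC12A and HAVCR2, with totals of 0 to 192 counts per group.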
